A study of Homo sapiens and Mus musculus with 33 samples.

Results

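The levels of crotonylated and acetylated lysine 18 of histone H3 (H3K18cr and H3K18ac) at gene starts were set against gene expression in control HCT116 cells, a human colon cancer epithelial line that had received only DMSO, the solvent used as the vehicle, for 18 h. Of the 40266 peaks in the HCT116 ChIP-seq list, 12072 lay within 1 kb of the start of at least 1 of the 35805 genes in the RNA-seq count table. These gene-start peaks were chosen by position alone, and 28194 peaks lay elsewhere. A gene start was the start coordinate of a gene on the plus strand and the end coordinate of a gene on the minus strand. In all, 15575 genes had such a peak, and 14373 of their starts lay inside it. Of the gene-start peaks, 3631 lay at the starts of 2 or more genes, so that genes are not independent of each other here. The samples were 3 H3K18cr libraries, 3 H3K18ac libraries and 1 input library (chromatin sequenced without an antibody) from DMSO-treated cells, and 4 RNA-seq libraries from DMSO-treated cells. The line is 1 cell line and carries no engineered allele. Values from the cells treated with MS275 in the same study were not used. Whether those cells entered the calling of the peak list is not given.

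ChIP-seq counts DNA fragments pulled down with an antibody, and a ratio to input corrects for the ease with which a region is sequenced. Lysine acetylation neutralises the charge of the histone tail and is bound by bromodomain proteins. Crotonylation is a bulkier acyl mark made from crotonyl-CoA, written by some of the same acetyltransferases (such as p300) and removed by class I histone deacetylases, and it is read with preference by YEATS and double PHD finger domains. Both marks are known from the starts of active genes. Many gene starts in vertebrates sit in CpG islands, stretches that keep a high density of the dinucleotide CpG.

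The promoters of 2 genes are shown first as examples of a marked, highly expressed gene and of an undetected gene without a peak. HDAC1 encodes a class I deacetylase that removes both acetyl and crotonyl groups, and ADAD1 is a gene of the germ line. Each run is the 250 bases before the table's gene start, 5′ to 3′ on the gene's strand in the GRCh38 genome (hg38), with every CpG in capitals. They lie at chr1:32291836-32292085 (plus strand) and chr4:122378716-122378965 (plus strand).
HDAC1: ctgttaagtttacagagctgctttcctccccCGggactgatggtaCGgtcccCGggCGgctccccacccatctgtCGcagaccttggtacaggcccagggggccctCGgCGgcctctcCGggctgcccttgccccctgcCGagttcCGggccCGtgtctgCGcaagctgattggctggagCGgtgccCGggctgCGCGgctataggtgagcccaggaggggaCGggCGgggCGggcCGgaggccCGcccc
ADAD1: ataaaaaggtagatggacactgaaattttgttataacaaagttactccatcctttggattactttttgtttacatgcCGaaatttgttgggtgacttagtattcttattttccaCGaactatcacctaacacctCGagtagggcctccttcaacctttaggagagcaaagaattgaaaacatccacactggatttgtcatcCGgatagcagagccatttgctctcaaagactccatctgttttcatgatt
The HDAC1 run holds 21 CpG, whereas that of ADAD1 holds 4.

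The RNA-seq libraries held between 36312506 and 53415604 counts. The H3K18cr libraries had between 3197649 and 5730094 reads in peaks, the H3K18ac libraries between 3430854 and 5122616, and the input 1550122. Intervals given for shares are 95% Wilson intervals and cover counting error only. RNA-seq replicate 3 stood apart, since 9.28% of its counts were from mitochondrial genes against 1.57% to 2.29% in the other libraries, and 2662 genes had a count in that library only. Of 15 colon epithelial markers 13 had a count, as did 6 of 10 immune and 9 of 11 stromal and endothelial markers, though at different levels. Summed over the list, the colon markers were at 4090 to 5592 CPM per library (counts scaled to a common library total), the immune markers at 0.111 to 0.661 and the stromal and endothelial markers at 8.85 to 11.5. KRT8 was the highest colon marker at 1759 CPM, and CDX1 and LGALS4 had no count. The colon markers GPA33, CDH17 and VIL1 were at 0.0697 to 0.320 CPM. The highest immune marker was at 0.297 CPM and the highest stromal and endothelial marker was COL1A1 at 6.93 CPM. The labels and the methods name biological replicates but no separate cultures, so the spread between libraries may in part be technical.

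To ask which genes carry the marks, genes were grouped by their mean CPM over the 4 RNA-seq libraries. The 13060 genes without a count in any library were kept apart as undetected, and the 22745 detected genes were split into quartiles. The lowest quartile ended at 0.134 CPM, the second at 3.76 CPM and the third at 35.7 CPM. A peak lay at the start of 1296 undetected genes, or 9.92% (interval 9.42% to 10.4%). The share was 24.2% in the lowest quartile (1375 of 5686 genes, interval 23.1% to 25.3%) and 49.1% in the second (2791 of 5686, interval 47.8% to 50.4%). It reached 85.5% in the third quartile (4863 of 5686, interval 84.6% to 86.4%) and 92.3% in the highest (5250 of 5687, interval 91.6% to 93.0%). The intervals of these 5 groups do not overlap. Within the highest quartile the share was 93.5% in the top 10% of detected genes (2127 of 2275) and 90.8% in the top 1% (207 of 228), and of the 21 genes without a peak in the top 1%, 12 were mitochondrial. Peaks are 1 list for all libraries, so these shares have no replicate of their own, and the libraries it was called on are not given. The share in the lowest quartile depended on which genes count as detected: it was 64.2% when genes needed a count in all 4 libraries, and 31.4% without RNA-seq replicate 3.

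**Figure D1:**
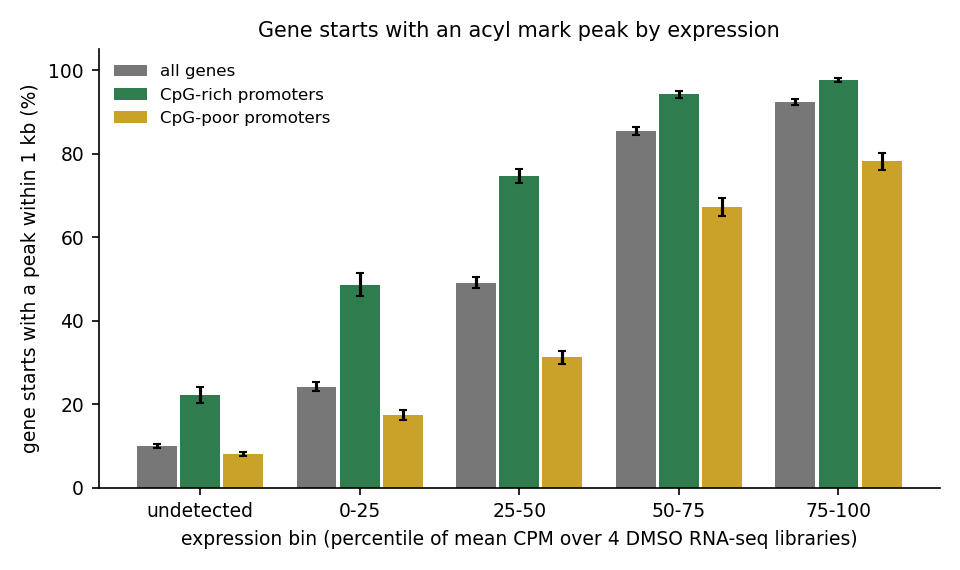
Percentage of gene starts with a peak within 1 kb (vertical axis, linear from 0) in undetected genes and in bins of mean CPM (horizontal axis), for all genes and for CpG-rich and CpG-poor promoters, with 95% Wilson intervals as error bars. The share among all genes goes from 9.92% to 92.3%, and CpG-rich promoters lie above CpG-poor ones in every bin.

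The marked genes without expression were of more than 1 kind. Of the 1296 undetected genes with a peak, 437 (33.7%) shared it with the start of a gene in the upper 2 quartiles, and 695 (53.6%) had a peak at no other gene start. In the lowest quartile, 615 of 1375 marked genes (44.7%) shared their peak with such a gene. Among the undetected genes whose peak was shared in this way, the median log2 ratio to input was 1.74 for H3K18cr and 1.83 for H3K18ac. Among those whose peak was not, it was 1.09 and 0.96. The same split in the lowest quartile gave 1.76 and 1.84 against 1.23 and 1.12. Of these 4 sets of genes, the 859 undetected ones whose peak lay at no start of a gene in the upper 2 quartiles thus had the lowest levels of both marks, in the lowest and in the highest library of each mark (0.92 to 1.20 for H3K18cr and 0.80 to 1.16 for H3K18ac).

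A few silent starts carried high levels. Among undetected genes whose peak served no other start, SLC35G6, a solute carrier family gene, had H3K18cr ratios of 2.57 ± 0.11 and H3K18ac ratios of 2.64 ± 0.36 on the log2 scale (mean ± SD, n = 3 libraries each). The locus RP11-452K12.7, whose name matched no gene in the annotation, had 2.97 ± 0.27 and 3.29 ± 0.28. Transcripts that the count table does not list were not examined at these starts. CYP2E1, known as a liver gene and detected at only 0.252 CPM in the second quartile, had a log2 H3K18cr ratio of 1.91. This ratio is uncertain, since the input at CYP2E1 held only 6.5 reads (scaled to the largest library). SERPINA1, another liver gene of that quartile (1.18 CPM), had 1.55, below the median of all marked genes (1.68). Of the germ cell genes without a count, MAEL and TDRD1, which act in silencing of transposons, had a peak, in each case shared with a neighbouring gene of the upper 2 quartiles (ILDR2 at 7.08 CPM and CCDC186 at 39.6 CPM), and their H3K18cr ratios were low, at 1.26 and 0.68.

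The reverse case, high expression without a peak, was rarer. The 437 genes of the highest quartile without a peak included 13 of the mitochondrial genome, which has no histones. MT-CO1, a subunit of cytochrome c oxidase, was the highest of them at 6471 ± 5910 CPM (SD, n = 4). That mean was raised by RNA-seq replicate 3, at 15272 CPM against 2550 to 4195 in the other libraries. Of the 437 genes, 311 (71.2%) had a peak within 1 kb of another annotated transcript start in GENCODE 44. When any annotated start was allowed, 97.8% of the highest quartile had a peak. RPL4, RPL10, RPL22 and RPL36 of the large ribosomal subunit, LDHB, HK1 and HDAC2, a close relative of HDAC1 at 232 CPM, were of this kind, whereas ALDOC (41.0 CPM) had no peak at any annotated start.

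Among genes with a peak, both marks were higher at more highly expressed genes, in every library. For H3K18cr the median log2 ratio to input in replicates 1, 2 and 3 was 1.42, 1.35 and 1.09 at undetected genes, 1.62, 1.54 and 1.32 in the lowest quartile and 1.94, 1.86 and 1.67 in the highest. For H3K18ac it was 1.00, 1.21 and 1.47 at undetected genes, 1.19, 1.44 and 1.79 in the lowest quartile and 1.65, 1.89 and 2.34 in the highest. The order of the 5 groups was the same in all 6 libraries, while H3K18ac libraries differed more among themselves than H3K18cr libraries did. In the top 1% of genes the mean over libraries of the median reached 1.94 ± 0.15 (SD, n = 3) for H3K18cr and 2.16 ± 0.43 (SD, n = 3) for H3K18ac. Input reads per kb of peak were 17.4 at undetected genes and 18.5 in the highest quartile (medians), and median peak width was 2400 bp and 3000 bp.

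**Figure D2:**
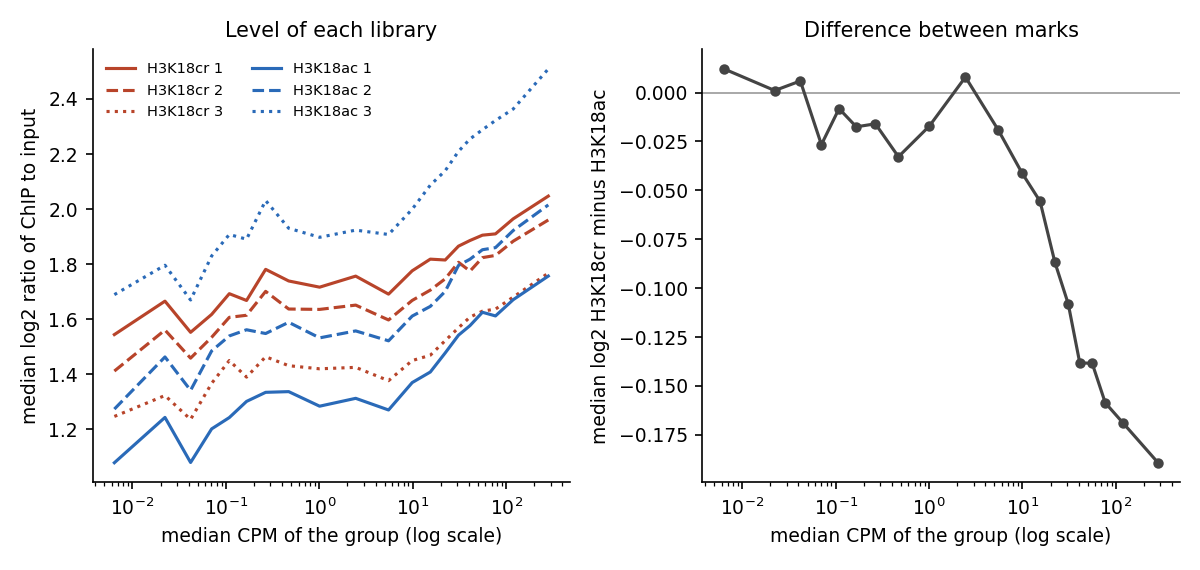
Left, median log2 ChIP/input ratio of each library (lines) in 20 groups of detected genes of equal size, against the median CPM of the group on a log axis. Right, the median of H3K18cr minus H3K18ac in the same groups; it stays between -0.03 and 0.01 up to 5.51 CPM and is -0.19 in the last group.

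The step from the lowest to the highest expression quartile was taken as 1 value per library. It was 0.32, 0.32 and 0.34 log2 units in the H3K18cr libraries, and 0.46, 0.45 and 0.55 in the H3K18ac libraries. The means were 0.33 ± 0.01 (SD, n = 3) and 0.49 ± 0.05 (SD, n = 3), and each H3K18ac library lay above each H3K18cr library. Every library was above 0, with p = 0.25 for each mark in an exact sign-flip test (two-sided), the smallest p that 3 values allow. The difference between the marks, -0.16 (H3K18cr minus H3K18ac), had p = 0.1 in an exact permutation test (two-sided), the smallest p for 3 against 3 libraries, so that neither test could reach 0.05.

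The size of the step depended on which genes were compared, for both marks alike. It was 0.59 (H3K18cr) and 0.82 (H3K18ac) for peaks that served 1 gene start, 0.58 and 0.82 when genes of the lowest quartile that shared a peak with a gene of the upper 2 quartiles were left out, and 0.52 and 0.76 for protein-coding genes. It was 0.15 and 0.25 at CpG-rich promoters. In each of these settings the libraries of the marks did not overlap. The H3K18ac libraries also separated gene-start peaks from other peaks to different degrees, by 0.58, 0.74 and 0.97 log2 units against 0.71, 0.66 and 0.58 for H3K18cr (exact permutation test, two-sided, p = 0.4). Divided by this value of its own library, the step was 0.45, 0.48 and 0.59 for H3K18cr and 0.79, 0.61 and 0.56 for H3K18ac, and the marks overlapped (exact permutation test, two-sided, p = 0.2). Divided by the library's median ratio at gene-start peaks, it was 0.18, 0.19 and 0.23 against 0.33, 0.28 and 0.27 without overlap (exact permutation test, two-sided, p = 0.1).

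**Figure D3:**
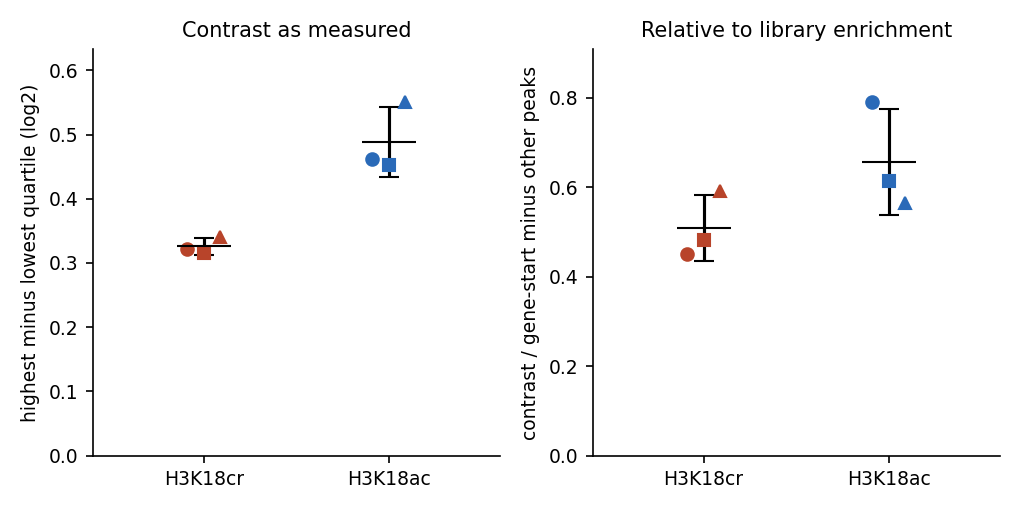
Left, the step in median log2 ratio from the lowest to the highest expression quartile for each library (circles, squares and triangles are replicates 1, 2 and 3), with the mean (wide line) and 1 SD on either side (error bars, n = 3); the 3 H3K18ac libraries lie above the 3 H3K18cr libraries. Right, the same step divided by the library's own difference between gene-start and other peaks, where the marks overlap.

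Read the other way, the marks sorted genes by expression only loosely. Among the 15575 genes with a peak, the 3894 with the lowest H3K18cr ratio had a median of 2.49 CPM and 17.1% undetected genes, and the 3894 with the highest had 27.4 CPM and 4.34%. The corresponding groups by H3K18ac were at 1.72 and 31.9 CPM. The interquartile range of the genes with the highest H3K18cr still ran from 2.15 to 74.8 CPM. Across 14279 detected genes with a peak, Spearman's rho between the ratio and mean CPM was 0.19 to 0.21 in the H3K18cr libraries and 0.24 to 0.28 in the H3K18ac libraries. These are correlations across genes that share libraries and peaks, and rho was 0.14 for the input level alone and 0.13 for peak width.

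Single genes show the spread. EEF1A1, the elongation factor that brings tRNA to the ribosome, had the highest expression of all marked genes (14612 ± 2995 CPM, SD, n = 4), with H3K18cr ratios of 3.00, 2.83 and 2.99 and H3K18ac ratios of 3.07, 3.39 and 3.79 on the log2 scale. ACTG1, a cytoskeletal actin, was at 4745 ± 345 CPM (SD, n = 4) with ratios of only 0.48, 0.41 and 0.12 for H3K18cr and 0.32, 0.19 and 0.42 for H3K18ac. The table's start of ACTG1 was thus among the 3894 with the lowest ratio for either mark. The peak directly next to it, which lies within the span of ACTG1 and was assigned to the start of RP13-766D20.2 (0.102 CPM), had mean ratios of 2.86 and 3.07, so the gene itself is not weakly marked throughout. CLDN7, a tight junction protein of epithelia at 166 ± 22 CPM (SD, n = 4), was among the most strongly marked, with 2.86, 2.96 and 2.93 for H3K18cr and 2.50, 3.08 and 3.52 for H3K18ac. Its peak also lay at the start of RP1-4G17.5 (51.0 CPM).

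CDKN1A, which encodes the cell cycle inhibitor p21, was at 188 ± 24 CPM (SD, n = 4) and had log2 ratios of 2.09, 1.92 and 1.67 for H3K18cr and 1.42, 1.86 and 2.11 for H3K18ac. BBC3, which encodes the p53 target and cell death factor PUMA, was at 35.3 ± 10.9 CPM with 2.01, 1.86 and 1.85 against 1.71, 1.90 and 2.24. At HDAC1 (323 ± 54 CPM, SD, n = 4) they were 2.12, 1.95 and 1.74 against 1.38, 1.76 and 2.20. The marks overlapped at all 3 genes, and the mean H3K18cr ratio was 1.89 ± 0.21 at CDKN1A and 1.94 ± 0.19 at HDAC1 (SD, n = 3 libraries). HDAC3, another class I deacetylase, at 91.5 ± 7.3 CPM (SD, n = 4), had 1.79, 1.71 and 1.12 against 1.78, 1.365 and 1.86, and shared its peak with RELL2 (7.62 CPM). In the fit across all peaks described next, H3K18cr minus H3K18ac was between -0.13 and 0.16 at CDKN1A, BBC3, CLDN7, HDAC1 and HDAC3, with adjusted p of at least 0.97 (limma). Leaving out 1 library turned its sign at all 5 genes, with ranges of -0.09 to 0.26, -0.16 to 0.10, -0.39 to 0.13, -0.04 to 0.37 and -0.28 to 0.08 in this order.

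**Figure D4:**
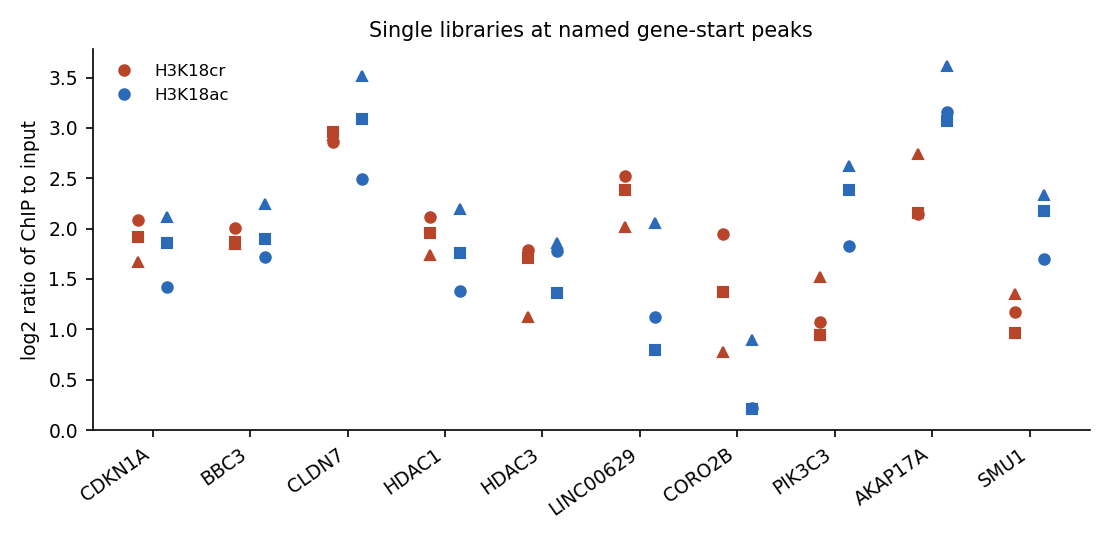
Log2 ratio of ChIP to input (vertical axis, from 0) at named gene-start peaks for each library; circles, squares and triangles are replicates 1, 2 and 3 of H3K18cr and H3K18ac. The marks overlap at CDKN1A, BBC3, CLDN7, HDAC1 and HDAC3.

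The balance of the marks moved with expression. The median of H3K18cr minus H3K18ac was 0.04 at undetected genes, -0.01 in the lowest quartile, -0.01 in the second, -0.06 in the third and -0.16 in the highest, and -0.25 in the top 1%. H3K18cr was above H3K18ac at 56.3% of marked undetected genes, 27.7% of the highest quartile and 15.9% of the top 1%. The absolute value depends on which libraries are paired: over the 9 pairs of an H3K18cr with an H3K18ac library the median in the highest quartile ran from -0.67 to 0.26. Spearman's rho of the difference with CPM was negative in all 9 pairs, but its size went with 1 library: it was -0.23 to -0.27 in the 3 pairs with H3K18ac replicate 3 and -0.11 to -0.15 in the other 6. The 3894 genes with the most H3K18ac relative to H3K18cr had a median of 30.6 CPM, and the 3894 with the least had 4.35 CPM. Peaks away from gene starts had a median difference of 0.07 against -0.06 at gene-start peaks.

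The balance also moved with the level of both marks, which is itself higher at expressed genes. Marked genes were split into 3 groups of equal size by the mean of the ratios of both marks. In the group of low level, the median difference went from 0.10 at undetected genes to -0.01 in the highest expression quartile, in the middle group from -0.0036 to -0.12, and in the group of high level from -0.12 to -0.25. The highest quartile lay below undetected genes in all 9 pairs of an H3K18cr with an H3K18ac library in the middle and high groups, but in only 6 of 9 in the low group, where the step ran from -0.29 to 0.04. The marks were pulled down with different antibodies, and a difference in their efficiency cannot be told apart from a difference in the abundance of the marks.

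Single peaks were compared with limma on the deposited log2 values of the 6 libraries, over all 39997 peaks with a mean of at least 10 scaled reads. No gene-start peak (0 of 12064) passed an adjusted p of 0.05 in either direction, where percent called over all peaks was 0 for higher H3K18cr and 0.0025 for higher H3K18ac. At an unadjusted p under 0.05, 164 gene-start peaks (1.359%) had more H3K18cr and 377 (3.125%) more H3K18ac, where percent called over all peaks by this rule was 2.87 and 2.33. With the libraries centred on their medians 0 passed the adjusted threshold, and at an unadjusted p under 0.05 the numbers were 171 (1.42%) and 1846 (15.3%), where percent called over all peaks was 2.49 and 7.81. With libraries paired by replicate number (replicate block), limma called 1 gene-start peak with higher H3K18cr and 4 with higher H3K18ac at an adjusted p of 0.05, where percent called over all peaks was 0.0175 and 0.0325. edgeR on the reads recovered from the log2 values called 35 gene-start peaks with higher H3K18cr and 170 with higher H3K18ac at the same threshold, where percent called over all peaks was 0.178 and 0.463. DESeq2 called 17 and 211 of the 7797 gene-start peaks to which it gave an adjusted p, where percent called over all 13632 peaks with a DESeq2 adjusted p was 0.249 and 1.66. The edgeR calls for H3K18ac were 0 at peaks whose most highly expressed gene was undetected or in the lowest quartile, 3 of 1530 in the second quartile (0.196%), 39 of 4094 in the third (0.953%) and 128 of 5009 in the highest (2.56%). Those for H3K18cr were 8, 2, 6, 11 and 8 in the same order, which is 1.06% of peaks at undetected genes and 0.160% of peaks in the highest quartile. Which genes differ between the marks therefore rests on the test used, and calls at gene groups further below are those of edgeR.

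As no gene-start peak passed adjustment with limma, the 3 largest differences in each direction are given, restricted to an unadjusted limma p under 0.05 and at least 50 scaled reads per library on average. PIK3C3, the class III phosphoinositide 3-kinase of endosomal sorting and autophagy, had log2 ratios of 1.08, 0.94 and 1.52 for H3K18cr and 1.83, 2.38 and 2.63 for H3K18ac, a difference of -1.10 ± 0.27 (SE). SMU1, a splicing factor, had 1.17, 0.96 and 1.35 against 1.70, 2.18 and 2.34, a difference of -0.91 ± 0.26 (SE). AKAP17A, a splicing regulator in the pseudoautosomal region, differed by -0.93 ± 0.26 (SE). The libraries of the marks did not overlap at these 3 genes. In the other direction CORO2B, an actin-binding coronin at 2.97 ± 1.47 CPM (SD, n = 4), had 1.95, 1.37 and 0.77 for H3K18cr and 0.22, 0.21 and 0.89 for H3K18ac, with H3K18ac replicate 3 above H3K18cr replicate 3. The non-coding gene LINC00629 (no count) and the unclassified RP4-539M6.19 (36.2 CPM) differed by 0.99 ± 0.29 and 0.83 ± 0.27 (SE), and there too the libraries overlapped. Adjusted p was 0.70 at PIK3C3 and 0.94 at the other 5 peaks with limma, and between 0.012 and 0.043 with edgeR. As the peaks were chosen by their difference in these same libraries, the edgeR values are no independent support.

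The promoter of CORO2B (chr15:68578719-68578968, plus strand) is shown as that of the protein-coding gene with the most H3K18cr relative to H3K18ac in this comparison, printed as above with CpG in capitals.
CORO2B: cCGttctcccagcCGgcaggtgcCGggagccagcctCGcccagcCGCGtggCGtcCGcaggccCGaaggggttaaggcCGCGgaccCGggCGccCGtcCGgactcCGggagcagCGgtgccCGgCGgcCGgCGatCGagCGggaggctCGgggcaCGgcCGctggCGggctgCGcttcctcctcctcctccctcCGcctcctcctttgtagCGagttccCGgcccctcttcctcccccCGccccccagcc
This run is rich in CpG, with 32 dinucleotides.

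Sequence around the start separated marked from unmarked genes strongly. Each gene's window ran from 250 bases before to 50 bases after its start, and it was called CpG-rich when its GC content was at least 50% and its ratio of observed to expected CpG at least 0.6. Of genes with a peak 66.7% were CpG-rich, with a median CpG ratio of 0.779, against 14.3% and 0.253 of genes without one. The share of CpG-rich starts with a peak was 22.1% at undetected genes, 48.7%, 74.7% and 94.2% in the first 3 quartiles and 97.7% in the highest. At CpG-poor starts it was 8.04%, 17.4%, 31.3%, 67.2% and 78.2%. Expression and CpG content thus each separated marked from unmarked starts within the classes of the other. The windows lie at the table's start only. Of the 437 genes of the highest quartile without a peak there, 311 had one at another annotated start. The CpG content of those other starts was not examined.

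CpG class also went with how far the level of the marks followed expression. From the lowest to the highest quartile the step in the median log2 ratio was 0.15 ± 0.02 for H3K18cr and 0.25 ± 0.04 for H3K18ac (SD, n = 3) at CpG-rich starts. At CpG-poor starts the steps were 0.44 ± 0.01 and 0.63 ± 0.11. Each is above 0 in all 3 libraries (exact sign-flip test, smallest p = 0.25). CpG-poor starts in the highest quartile still had lower medians, 1.76 for H3K18cr and 1.85 for H3K18ac, than CpG-rich ones, 1.83 and 1.99.

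Motifs were searched as exact letters on both strands in the same windows. The cAMP response element TGACGTCA was in 2.59% of windows with a peak and 1.497% of all windows, and the ETS-type motif CCGGAAGT in 6.07% and 3.08%. The TATA box TATAAA was in 6.63% and 13.3%, the GC box GGGCGG in 60.4% and 36.7%, and CCAAT in 34.3% and 35.02%. Among detected genes with a peak, the 389 with TGACGTCA had a median H3K18cr minus H3K18ac of -0.28 against -0.08 without it, and the 920 with CCGGAAGT had -0.22 against -0.08. With each of the other 3 motifs the median was between -0.11 and -0.07, close to that without them (-0.09 to -0.07). Genes with either of the first 2 motifs were also more highly expressed, with 44.5% and 44.6% in the highest quartile against 36.6% and 36.2%, and what part expression has in the difference was not tested. A match is a description of the letters and no evidence of a bound factor.

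Sites are shown at the 3 most highly expressed marked genes with each motif among those whose 24-base stretch lay wholly before the start, with the motif in capitals and 8 bases on either side where the window allowed. The elongation factor gene EEF2 (4444 CPM) was passed over, since its window holds TGACGTCA but the stretch ran past the start. TGACGTCA lay before FAT1, a cadherin, at chr4:186726737-186726760 (minus strand), before IMPDH2, an enzyme of guanine nucleotide synthesis, at chr3:49029456-49029479 (minus strand), and before UBE2S, a ubiquitin-conjugating enzyme of mitosis, at chr19:55407861-55407884 (minus strand). CCGGAAGT lay before RPS6 at chr9:19380325-19380348 (minus strand), RPS18 at chr6:33271930-33271953 (plus strand) and, as its reverse complement, RPL19 at chr17:39200033-39200056 (plus strand), all 3 ribosomal proteins.
FAT1: cggggcgcTGACGTCAcctcccct
IMPDH2: ctacgcccTGACGTCAgcgtcgcg
UBE2S: gtgcgcgcTGACGTCAcggttgag
RPS6: aatctcgcCCGGAAGTaccgccca
RPS18: aaggcgcaCCGGAAGTtgtggtac
RPL19: ACTTCCGGttacagataaccacgt
At these genes the mean log2 ratios of H3K18cr and H3K18ac were 1.79 and 1.81 (FAT1), 1.23 and 1.55 (IMPDH2), 2.33 and 2.59 (UBE2S), 1.77 and 2.27 (RPS6), 1.84 and 1.98 (RPS18), and 2.19 and 2.55 (RPL19). H3K18ac was the higher mean at all 6, by 0.02 at FAT1 to 0.50 at RPS6.

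Gene groups written by hand are described by counts and medians beside those of all genes, of which 43.5% had a peak, with a median log2 ratio of 1.68 for H3K18cr and 1.74 for H3K18ac and a median difference of -0.07. Groups of growth and housekeeping were almost fully marked. Of 76 cytosolic ribosomal protein genes 72 had a peak, of 30 DNA replication genes 27, of 31 proteasome genes 30, and of 27 enzymes and readers of acyl marks 25. Their median differences of H3K18cr minus H3K18ac were -0.31, -0.34, -0.21 and -0.19, each further toward H3K18ac than the median of all marked genes. Most members were highly expressed: 75, 27, 31 and 19 of them were in the highest quartile. Of all genes in that quartile 92.3% had a peak, so these groups were marked about as often as highly expressed genes in general. Whether they are marked more often than equally expressed genes was not tested. The median difference of the highest quartile was -0.16. The zero of this scale depends on the libraries: without H3K18ac replicate 3 the median of all marked genes was 0.10, that of these groups -0.09, -0.12, -0.02 and 0.03, and they lay below that of all genes in this and in each other setting that left out 1 library. Counts of ribosomal protein genes are uncertain because of their many near-identical pseudogene copies: the table holds RPL41 both on chromosome 12 (190 CPM, with a peak) and on chromosome 7 (18.8 CPM, without one), and the former was used.

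Single members lay on either side. MCM7, a subunit of the replicative helicase at 621 CPM, had mean log2 ratios of 2.48 for H3K18cr and 2.94 for H3K18ac, and PSMA7 of the proteasome core had 3.07 and 3.51. Among enzymes and readers, HDAC1 and ACLY, which makes acetyl-CoA from citrate, had the higher mean for H3K18cr, by 0.16 and 0.04. At an unadjusted p under 0.05, edgeR gave higher H3K18ac at 47 of 72 ribosomal, 17 of 27 replication, 9 of 30 proteasome and 7 of 25 enzyme and reader starts. Higher H3K18cr was at 1 enzyme or reader. By this rule higher H3K18ac was at 2198 of 12064 gene-start peaks and 3010 of 39997 peaks in all. The share in the highest quartile was not counted. At the adjusted threshold, edgeR called higher H3K18ac at 4 ribosomal starts (RPL5, RPL34, FAU and RPS9). It called 3 of replication genes (MCM2, GINS4 and FEN1) and 0 of proteasome genes. Percent called at that threshold was 0.463 over all peaks and 2.56 over gene-start peaks of the highest quartile. Those called among the 25 enzymes and readers tested included SIRT2, a deacylase. SIRT2, at 12.1 ± 1.2 CPM (SD, n = 4), had 1.57 ± 0.34 for H3K18cr and 2.29 ± 0.27 for H3K18ac (SD, n = 3), an edgeR difference of -0.73 with adjusted p = 0.027. None of these 8 peaks was called by limma, whose adjusted p was 0.94.

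Further groups concern the colon, its signals, p53 and glycolysis. Of 15 Wnt target genes 12 had a peak, with a median difference of 0.19, and of 15 colon epithelial markers 10, with 0.09. Leaving out single libraries kept the Wnt median between 0.09 and 0.33, whereas that of the colon markers was -0.06 without H3K18ac replicate 1. CCND1 (cyclin D1, 580 CPM) had mean log2 ratios of 2.57 for H3K18cr and 2.35 for H3K18ac, MYC (407 CPM) 1.45 and 1.25, and DKK1, a secreted Wnt inhibitor (368 CPM), 1.70 and 1.46. The stem cell gene LGR5 and ASCL2 had no count and no peak at the table's start. All 18 p53 target genes had a peak, with a median difference of -0.06, and 14 of 17 glycolysis genes, with -0.07. Both medians changed sign when single libraries were left out, with ranges of -0.14 to 0.13 and -0.27 to 0.20. No member of these 4 groups was called by limma or edgeR, in either direction.

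Groups of other tissues were mostly unmarked. A peak lay at 10 of 41 developmental transcription factors, 4 of 20 neuronal, 3 of 20 hepatocyte, 3 of 16 germ cell and 2 of 17 skin and keratinization genes, and at 1 of 10 immune and 2 of 11 stromal and endothelial markers. The marked members were in part expressed: FOXC1, a forkhead factor, was at 109 CPM with mean log2 ratios of 2.36 and 2.29, and SYT1, a synaptic vesicle protein, at 80.4 CPM with 1.76 and 1.66. EN2, a homeobox factor, was marked at 2.22 and 2.32 with only 0.922 CPM. CYP2E1 had more H3K18ac, at 1.91 and 2.68, and SYP, a synaptic vesicle gene at 1.19 CPM, more H3K18cr, at 1.98 and 1.33. The input held only 6.5 scaled reads at CYP2E1 and 3.9 at SYP, so these ratios are uncertain. Neither gene was called by limma or edgeR.

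**Figure D5:**
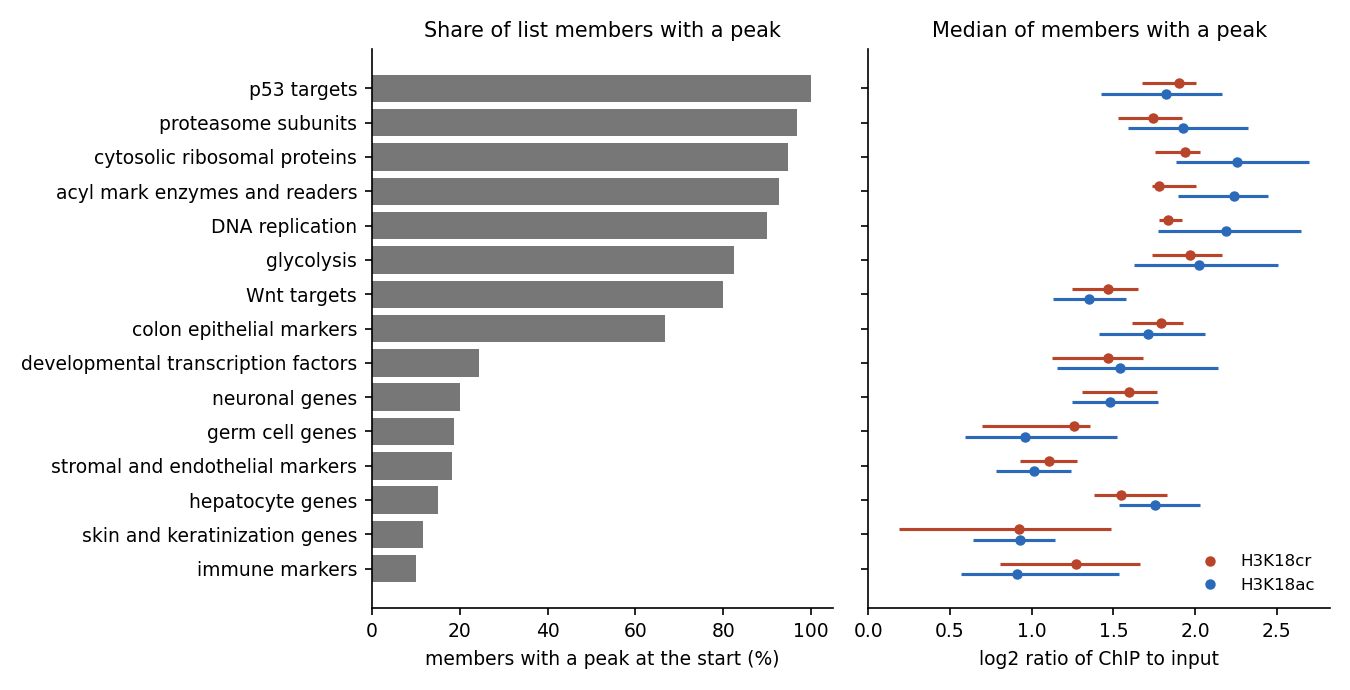
Left, the percentage of members of each hand-written gene group with a peak at the start. Right, the median log2 ChIP/input ratio over the marked members (points), with a line from the lowest to the highest library, for H3K18cr and H3K18ac; the ribosomal and DNA replication groups have median H3K18ac ratios of 2.26 and 2.19 above H3K18cr ratios of 1.94 and 1.83, and the Wnt target group the reverse at 1.35 and 1.47, on the average over all 3 libraries.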

How the data were processed

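H3K18cr, H3K18ac and input ChIP-seq and RNA-seq of DMSO-treated HCT116 cells were grouped by the labels of the series. The authors deposited the RNA-seq data as raw read counts per gene, without normalization, and the ChIP-seq data as log2 values. The deposited log2 values are read counts per peak multiplied by 1 factor per library that scales it to the largest library, with 0.9 read in place of 0; 100% of values gave whole reads (tolerance 0.01). The methods name Trim Galore, Bowtie2, GRCh38, removal of duplicates and the MACS peak finder of SEQMONK; the submitters' processing notes name Bowtie2 2.2.5, Trim Galore 0.4.2 and TopHat2 2.0.12. The libraries on which peaks were called, and whether counting used strand, are not given in the sources used here. The library kit was directional and selected poly(A) RNA, so transcripts without a tail are missed. The methods state a pair of replicates for H3K18cr in this line, whereas the labels give 3, which were used.

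Expression was the mean CPM on total counts. Ratios are differences of deposited log2 values from the 1 input library, which all ChIP libraries share, so an error in the input shifts both marks alike. A gene took its nearest peak within 1 kb. Marks were compared per peak with limma 3.58.1 on the whole table, with edgeR 4.0.16 (TMM) and DESeq2 1.42.0 on recovered reads as alternatives in R 4.3.3, and Benjamini-Hochberg adjustment. The limma and edgeR steps were tested on simulated data. Exact tests, Wilson intervals and plots used Python 3.11.15, scipy 1.17.1, pandas 2.3.3 and matplotlib 3.10.9. Gene biotypes and other transcript starts came from GENCODE 44, in which 21148 of 35805 names matched a gene within 10 kb, so biotypes cover those genes only. RefSeq promoters had been planned for the sequence features but covered too few genes. Windows were therefore read from hg38 for 35801 genes, and all 2295 with the symbol and coordinates of a RefSeq promoter had identical bases.

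Same-numbered H3K18cr and H3K18ac libraries did not deviate together (correlations of -0.07, -0.04 and -0.14), so the numbers were not treated as pairs. The genes named were those the study assayed by ChIP-qPCR with HDAC1 to HDAC3, the most highly expressed with and without a peak, the most strongly marked silent genes, the largest differences between the marks, and the most highly expressed members of 15 gene lists. Members, lists and genes were chosen with earlier results of these data known. Alternatives changed the distance to a peak, the measure of expression, the genes, the scaling, the filter, the test and the libraries. 1 gene of the lists and some promoter sequences are not reported here.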

Additional observations from a re-analysis of the deposited data

Results flagged for a closer look

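Of 81 sets of 4 RNA-seq values examined, 15 had 1 library farther from the other 3 than Dixon's 95% limit allows. Chance gives about 1 in 20 only for independent sets of normally spread values. Several sets here are not of that kind, so the count was not compared with chance. The mitochondrial share was 9.28% in replicate 3, and the CPM of MT-CO1 (15272), MT-ND4 (14646), MT-CO3 (13359), MT-ATP6 (11510) and MT-CO2 (8707) stood apart in that library, which are 1 event rather than 5. In the same library GAPDH was high at 5259 CPM, and DKK1 and MDM2 were low at 196 and 91.5 CPM. HSP90AB1, a heat shock protein, was high in replicate 1 at 6612 CPM.

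The other 5 are genes with counts in 1 library only, a pattern that passes the limit whatever the count. RP11-982M15.8 was at 0.245 CPM (11 counts) and PTPRC at 0.0668 CPM (3 counts) in replicate 1, CTD-3193O13.11 at 0.102 CPM (4 counts) in replicate 3, and CSF1R at 0.0936 CPM (5 counts) and KRT9 at 0.168 CPM (9 counts) in replicate 4. Genes with a count in only 1 library numbered 5083 in all.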

How the results depend on the processing

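The step from the lowest to the highest expression quartile was above 0 for both marks and smaller for H3K18cr in all 26 alternatives run on the difference, though no exact test in this design could pass 0.05. Leaving out 1 library gave 0.25 to 0.33 for H3K18cr, 0.39 to 0.51 for H3K18ac and -0.18 to -0.13 for the difference. With the libraries paired by number (replicate block), the differences were -0.14, -0.14 and -0.21 (two-sided p = 0.25 by exact sign-flip, which is the minimum).

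The share of starts with a peak in the highest quartile, the lowest quartile and undetected genes was 93.1%, 28.1% and 12.3% within 2 kb, 90.1%, 19.6% and 7.17% with the start inside the peak, 94.2%, 25.4% and 4.81% for protein-coding genes, 88.0%, 19.0% and 6.78% for peaks with a log2 H3K18cr ratio of at least 1, and 97.8%, 27.3% and 11.003% for any annotated start. The first 2 were 91.3% and 27.05% by CPM per kb of gene span, 91.2% and 9.55% with all genes in the quartiles, 93.0% and 38.5% for genes of at least 0.1 CPM, and 93.1% and 64.2% for genes with a count in all 4 libraries. Leaving out 1 RNA-seq library gave 92.3% to 92.5%, 25.03% to 31.4% and 10.3% to 11.2%.

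limma with the replicate block called 5 gene-start peaks (1 with higher H3K18cr, 4 with higher H3K18ac, or 0.00829% and 0.0332%, against 0.0175% and 0.0325% of all peaks), against 0 without it, and leaving out 1 ChIP library gave 0 to 5. edgeR called 205 and DESeq2 228; the cause of the gap to limma was not tested. The 6 peaks named for their difference passed with edgeR, and SMU1 also with DESeq2, which gave no adjusted p at the other 5. They were chosen by their difference in these same libraries, so passing is no independent support. With libraries centred on their medians, 0 passed, and 171 (1.42%) and 1846 (15.3%) had an unadjusted p under 0.05, against 2.49% and 7.81% of all peaks.

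Input was 1 library, and depth limits the lowest quartile, which ended at 0.134 CPM. Among genes with 1 to 20 counts, 50.4% to 80.7% had an odd count depending on the library, which was not examined further.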
